A study of Mus musculus with 12 samples.

Results

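The NADPH oxidase subunits were described across 12 bulk RNA-seq libraries of mouse femoral shaft. They were chosen by name as the 6 genes Cybb, Cyba, Ncf1, Ncf4, Nox4 and Rac2, all of which were found among the 49315 gene identifiers counted and among the 18161 that passed the filter on low counts. The mice were males of 12 weeks with intact catalase genes (wild type, Cat +/+) or without catalase (knockout, Cat -/-). The ethanol groups were given binge ethanol by gavage over 4 consecutive days, at 3, 3, 4 and 4.5 g per kg from a 31.5% solution (by volume). The PBS groups were given phosphate-buffered saline at equal volume, and tissue was taken 6 hours after the final dose. Centrifugation cleared the femurs of marrow before RNA was extracted, and each library pooled RNA from 2 mice. Each of the 4 groups had 3 libraries: 7, 8 and 9 (wild type, PBS), 10, 11 and 12 (wild type, ethanol), 1, 2 and 3 (knockout, PBS) and 4, 5 and 6 (knockout, ethanol). The p-values measure the spread between pools, and the knockout allele, the strain and the cells in which it was deleted were not given in the sources used here.

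NADPH oxidases pass electrons from NADPH across a membrane to oxygen and so make superoxide or hydrogen peroxide. In the phagocyte enzyme, Cybb (gp91phox) is the catalytic subunit and Cyba (p22phox) is the membrane partner that stabilises it. Ncf1 (p47phox) is the cytosolic organiser that is phosphorylated when the cell is stimulated, Ncf4 (p40phox) binds a phosphoinositide of phagosome membranes, and Rac2 is the small GTPase of blood cells that joins the assembled complex. Nox4 is a separate catalytic subunit that also pairs with Cyba, needs no cytosolic organiser and releases mainly hydrogen peroxide. Neutrophils and macrophages carry the phagocyte enzyme, and in bone Nox4 has been studied in osteoclasts and in cells of the osteoblast lineage.

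The promoters of the catalytic subunits are printed because one, Cybb, belongs to the phagocyte enzyme and the other, Nox4, to a separate enzyme. RefSeq windows of 300 bases around the RefSeq gene start (GRCm38.p6) were found for 4 of the 6 genes, Cybb, Cyba, Ncf1 and Nox4. For Cybb and Nox4 the RefSeq start is not that of the GENCODE gene span given further on: the Cybb window lies inside the GENCODE span of the gene, which starts at 9487771, and the Nox4 window begins after the GENCODE start at 87246096. In the Cybb window, chrX:9469275-9469574 on the minus strand, capitals mark the match to CCAAT at base 195 and the match to TTCCTC, the reverse complement of the PU.1 core GAGGAA, at base 260. In the Nox4 window, chr7:87246399-87246698 on the plus strand, capitals mark CG pairs.
Cybb: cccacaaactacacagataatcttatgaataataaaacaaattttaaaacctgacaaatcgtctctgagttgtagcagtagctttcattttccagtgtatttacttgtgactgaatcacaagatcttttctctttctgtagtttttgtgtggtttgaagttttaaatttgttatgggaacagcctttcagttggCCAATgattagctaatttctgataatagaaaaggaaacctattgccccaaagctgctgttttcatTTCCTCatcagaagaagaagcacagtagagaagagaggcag
Nox4: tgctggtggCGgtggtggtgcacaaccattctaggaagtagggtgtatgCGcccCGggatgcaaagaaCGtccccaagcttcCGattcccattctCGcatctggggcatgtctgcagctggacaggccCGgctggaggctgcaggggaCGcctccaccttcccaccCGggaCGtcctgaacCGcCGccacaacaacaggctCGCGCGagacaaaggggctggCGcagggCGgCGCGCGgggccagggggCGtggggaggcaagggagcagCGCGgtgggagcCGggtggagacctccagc
The Cybb window was 35.3% G and C with 1 CG pair, and the Nox4 window was 68.3% G and C with 24 CG pairs. The median over all windows was 52.7% and 7 pairs. Ncf1 (54.0%, 3 pairs) and Cyba (60.7%, 9 pairs) lay between. On both strands, GAGGAA was present in 28.3% of 32851 windows, CCAAT in 37.4% and TATAAA in 13.6%. Of the 4 windows, only that of Cybb held GAGGAA or CCAAT, and none held TATAAA. A match describes letters in the window and is not evidence of a bound factor.

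Libraries held 19950222 to 28789308 counts. Cat, the deleted gene, checked the labels: its transcript was lower in the knockout by -1.17 (log2) under PBS and -1.16 under ethanol (edgeR adjusted p = 0.0020 and 0.0010), so Cat reads were reduced and not absent. All 13 osteoblast and 9 osteocyte markers were counted in every library, and so were all 22 neutrophil markers and all 16 skeletal muscle markers. The neutrophil markers summed to 27671 to 48831 CPM (the count scaled to the library total and its TMM factor) and the muscle markers to 1304 to 38104 CPM. The wild-type libraries 8, 9 and 12 had muscle sums of 33196 CPM or more, against at most 18887 CPM in the other 9 libraries. Tests that rest on these 3 libraries are also given without them. This leaves library 7 as the only wild-type PBS library, assumed to vary like the other groups, against libraries 10 and 11.

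The membrane subunits were abundant. Cybb (chromosome X, 9435252 to 9487771, minus strand, GRCm38) was counted at 912, 1004 and 604 CPM in the wild-type PBS libraries 7, 8 and 9 and at 834, 757 and 992 CPM in the wild-type ethanol libraries 10, 11 and 12. Its knockout values were 779, 698 and 642 CPM after PBS and 717, 700 and 785 CPM after ethanol. The ethanol and PBS ranges overlapped in both genotypes, with library 8 the highest of all 12 and library 9 the lowest. Cyba (chromosome 8, 122424776 to 122432930, minus strand) read 250, 283 and 190 CPM after PBS and 232, 200 and 257 CPM after ethanol in the wild type. In the knockout it read 222, 221 and 232 CPM after PBS and 223, 216 and 239 CPM after ethanol. Cyba showed the same order of libraries 8 and 9, and its knockout libraries were close together (SD 6.38 CPM after PBS, 11.4 CPM after ethanol, against 47.5 and 28.6 CPM in the wild type, n = 3 each).

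The cytosolic organiser Ncf1 (chromosome 5, 134220053 to 134229625, minus strand) read 638, 718 and 473 CPM in the wild-type PBS libraries and 710, 615 and 874 CPM in the wild-type ethanol libraries. In the knockout it read 555, 521 and 515 CPM after PBS and 632, 593 and 666 CPM after ethanol. All 3 knockout ethanol libraries therefore lay above all 3 knockout PBS libraries, while the wild-type ranges overlapped. Ncf1 shares 408 exon bases with Gtf2ird2 on the other strand, and strand use in counting was not given in the sources used here. Gtf2ird2 itself was counted at 36.2 to 53.8 CPM, far below Ncf1. In the knockout it read 40.4, 40.3 and 40.4 CPM after PBS and 48.0, 41.7 and 50.3 CPM after ethanol, without overlap. In the wild type it read 48.8, 44.3 and 36.2 CPM after PBS and 52.0, 44.2 and 53.8 CPM after ethanol. The part of the shared bases in the Ncf1 values was not tested.

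Ncf4 (chromosome 15, 78244801 to 78262580, plus strand) was read at 187, 204 and 137 CPM after PBS and 182, 172 and 215 CPM after ethanol in the wild type. Its knockout values were 154, 152 and 152 CPM after PBS and 170, 168 and 193 CPM after ethanol, again without overlap. Rac2 (chromosome 15, 78559167 to 78572783, minus strand) was read at 479, 546 and 377 CPM after PBS and 513, 431 and 524 CPM after ethanol in the wild type. In the knockout it was read at 434, 421 and 406 CPM after PBS and 430, 439 and 478 CPM after ethanol. The Rac2 ranges overlapped in every comparison of groups.

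Nox4 (chromosome 7, 87246096 to 87398710, plus strand) was rare: its highest library held 69 reads. It was counted with 8, 23 and 21 reads in the wild-type PBS libraries 7, 8 and 9 and with 11, 51 and 69 reads in the wild-type ethanol libraries 10, 11 and 12. The knockout libraries held 11, 25 and 11 reads after PBS and 58, 41 and 23 reads after ethanol. As CPM, the group means were 0.812 ± 0.433 and 2.18 ± 1.57 in the wild type and 0.573 ± 0.256 and 1.52 ± 0.606 in the knockout (SD, n = 3 each, PBS then ethanol). Ethanol libraries 10 and 6 overlapped the PBS libraries of their genotype, and the other 4 ethanol libraries lay above them.

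**Figure D1:**
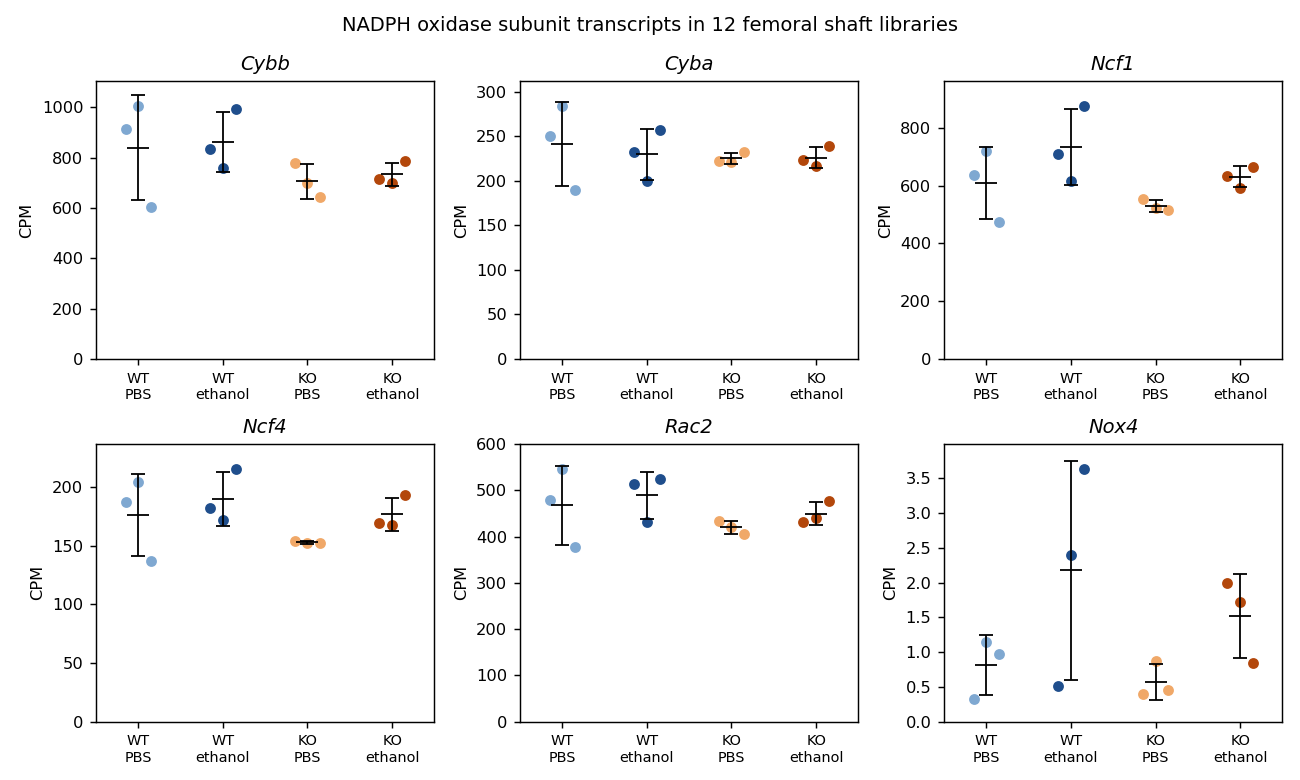
CPM of each gene (linear axes from 0, differing between panels) in the 12 libraries by group; points are libraries in their numbered order, bars are the mean and SD of 3 libraries. Cybb, Cyba, Ncf4 and Rac2 spread widest in the wild-type PBS group and Ncf1 in the wild-type ethanol group, and Nox4 stayed at or below 3.63 CPM.

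Per kilobase of exon, so that genes can be compared, the order over the 12 libraries was Cyba 222 ± 24.2, Ncf1 171 ± 29.9, Rac2 147 ± 16.5, Cybb 135 ± 22.2, Ncf4 86.0 ± 11.5 and Nox4 0.150 ± 0.118 CPM per kb (SD, n = 12). Every step of this order held in all 12 libraries except Rac2 above Cybb, which held in 10 of 12 with a ratio of 0.983 to 1.18. Cyba and Ncf1 were also close, with a ratio of 1.04 to 1.59. Nox4 was lower than Ncf4, the least abundant of the phagocyte genes, by a factor of 249 to 2438. The exon length is the union of all annotated exons (5808 bases for Cybb, 1039 for Cyba, 8471 for Nox4), so isoform use can shift these levels.

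After binge ethanol in the wild type, none of the 6 genes passed edgeR's quasi-likelihood test with Benjamini-Hochberg adjustment over all genes, a comparison in which 1.26% of genes tested did. None had an unadjusted p under 0.05, and neither DESeq2 nor limma-voom, which called 4.43% and 0.837% of genes, called any. Cybb differed by 0.037 ± 0.17 (log2 fold change ± SE), Cyba by -0.070 ± 0.13 and Rac2 by 0.066 ± 0.12 (adjusted p = 0.942, 0.839 and 0.836). These 3 differences were smaller than their standard errors. Ncf4 differed by 0.11 ± 0.13 and Ncf1 by 0.27 ± 0.15 (adjusted p = 0.747 and 0.417). Nox4 had the largest value, 1.43 ± 0.67, a fitted 2.70-fold difference with adjusted p = 0.328. With 1 library left out, the Ncf1 value ran from 0.12 (without library 9) to 0.41 (without library 8). Without libraries 8, 9 and 12 it was 0.069 and Nox4 was 2.17 (edgeR adjusted p = 0.785 and 0.445). The median over the 6 genes was 0.087, against -0.018 over all genes.

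In the knockout, none of the 6 passed the same test either, where 1.87% of genes did. None had an unadjusted p under 0.05, and DESeq2 (5.89% of genes called) and limma-voom (2.51%) called none. Ncf1 differed by 0.25 ± 0.15, Ncf4 by 0.21 ± 0.13 and Rac2 by 0.096 ± 0.12 (adjusted p = 0.458, 0.479 and 0.778). Cybb and Cyba differed by 0.055 ± 0.17 and 0.0065 ± 0.13, and Nox4 by 1.39 ± 0.67 (adjusted p = 0.935, 0.995 and 0.349). Ncf1 and Ncf4 were the only members whose knockout ethanol libraries all lay above the PBS libraries, as did 16.3% of all genes tested. In the wild type no member did, against 7.32% of genes. Fitted on the 6 knockout libraries alone, the Ncf1 difference of 0.25 passed (adjusted p = 0.0239, with 9.44% of genes called), and it passed without libraries 8, 9 and 12 (0.25, adjusted p = 0.0409, 7.03% called). Over 22 alternatives its adjusted p ran from 0.0239 to 0.749.

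Averaged over both genotypes, none of the 6 was called where 10.8% of genes were, although Ncf1 and Nox4 had an unadjusted p under 0.05. Ncf1 differed by 0.26 ± 0.11, a 1.20-fold difference (unadjusted p = 0.0313, adjusted p = 0.144, edgeR). Nox4 differed by 1.41 ± 0.47, or 2.66-fold (unadjusted p = 0.0134, adjusted p = 0.0868). Without libraries 8, 9 and 12 the Ncf1 difference was 0.16 and the Nox4 difference 1.78 (edgeR adjusted p = 0.116 and 0.132). With 1 library left out, the Ncf1 value ran from 0.18 (without library 9) to 0.33 (without library 8). DESeq2 called 1 of the 6, Nox4 (1.42, adjusted p = 0.0179, with 15% of genes called), and limma-voom called 0 (10.9% of genes). Ncf4 differed by 0.16 ± 0.092, Rac2 by 0.081 ± 0.084, Cybb by 0.046 ± 0.12 and Cyba by -0.032 ± 0.090. The interaction of ethanol and genotype called 0 of the 6 (0 with an unadjusted p under 0.05, 0 by DESeq2 or limma-voom) and 0% of all genes (0.00304% by DESeq2), with member values from -0.043 to 0.10.

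**Figure D2:**
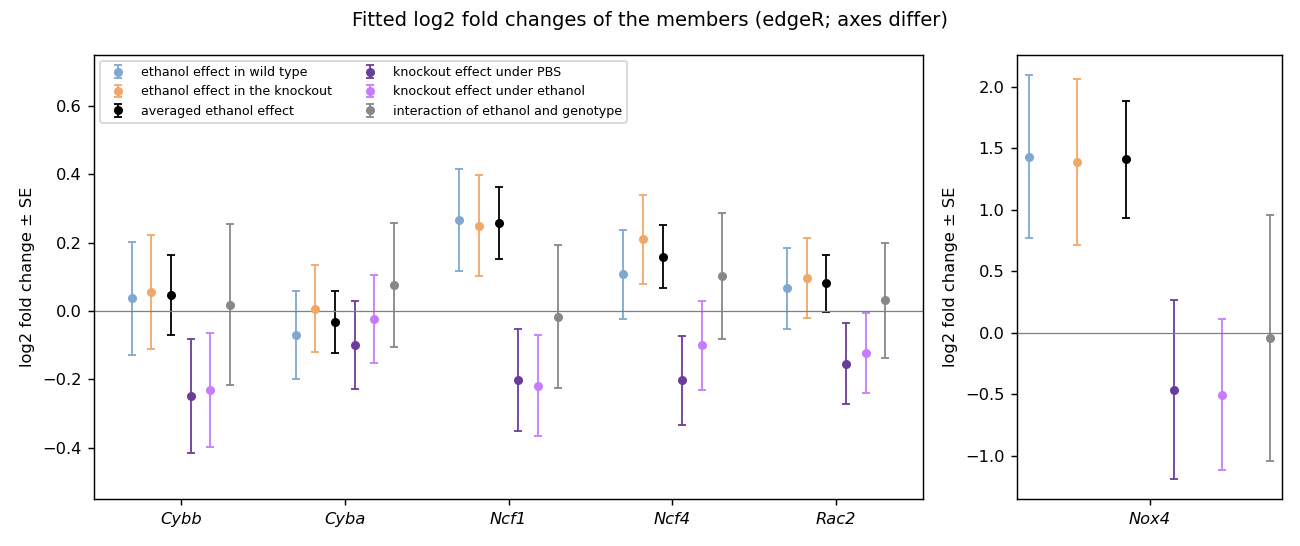
Log2 fold change (vertical axis) with its standard error from edgeR for each gene in the 6 comparisons; the Nox4 panel has its own, wider axis. Ncf1 and Nox4 had the largest averaged ethanol differences (0.26 and 1.41), and the knockout differences lay below 0 for all 6 genes.

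All 6 genes read lower in the knockout than in the wild type, under PBS and under ethanol, and none passed. In each gavage 0.011% of all genes did, 0 of the 6 members had an unadjusted p under 0.05 with edgeR, and DESeq2 and limma-voom called 0 of them. Over all genes DESeq2 called 0.00607% in the PBS comparison and 0.0748% in the ethanol comparison, and limma-voom called 0.011% in each. Under PBS the values were -0.25 for Cybb, -0.20 for Ncf1 and Ncf4, -0.15 for Rac2, -0.10 for Cyba and -0.46 for Nox4 (adjusted p = 0.626 to 0.838). Under ethanol they were -0.23 for Cybb, -0.22 for Ncf1, -0.12 for Rac2, -0.10 for Ncf4, -0.024 for Cyba and -0.51 for Nox4 (adjusted p = 0.820 to 0.974). No member's knockout libraries lay entirely below the wild-type ones, as 5.16% of genes did under PBS and 4.04% under ethanol. In both gavages all 22 neutrophil markers also read lower in the knockout, with none called. All 16 skeletal muscle markers read lower (median -1.61 under PBS and -1.36 under ethanol) and all 10 erythroid markers higher (median 0.42 and 0.35), none of them called, and the part of either in the members' values was not tested. With the mean log2 level of the 22 neutrophil markers as a covariate, the PBS values of the 5 phagocyte genes were 0.018 to 0.12. Under ethanol the same covariate gave 0.12 for Cyba, 0.040 for Ncf4 and -0.047 for Ncf1, and Cybb and Rac2 stayed negative. Under PBS 11 of 14 monocyte and macrophage markers (median 0.21) and 11 of 13 osteoblast markers (median 0.39) read higher in the knockout. Under ethanol 9 of 14 (median 0.12) and 3 of 13 (median -0.11) did. None of these markers was called, and their part in the members' values was not tested. In bulk RNA, fewer neutrophils, less RNA per neutrophil and more RNA from other cells cannot be told apart.

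In the wild-type groups the 5 phagocyte oxidase genes moved together from library to library, and with the neutrophil markers. In the knockout groups, where libraries differed less, they did so only in part. After group means were removed, the log2 CPM of any pair of the 5 had r = 0.904 to 0.962 over 12 libraries, and before that 0.691 to 0.957. Pairs with Nox4 had r = -0.18 to 0.032 after removal and -0.079 to 0.42 before. These are descriptions over libraries that share their depth and scaling, and no r is given without the wild-type libraries 8, 9 and 12. Before removal, 26 to 577 other named genes had an r with the first gene of a phagocyte pair at least as high as the pair's own. In the wild-type PBS group the neutrophil sum was 37315, 48831 and 27671 CPM in libraries 7, 8 and 9, the order in which all 5 genes stood. In the wild-type ethanol group it was 36976, 30767 and 48034 CPM in libraries 10, 11 and 12, and all 5 genes were again highest in library 12 and lowest in library 11. In the knockout PBS group the sum was 30712, 29815 and 30663 CPM in libraries 1, 2 and 3, an order that Cybb, Cyba, Ncf1 and Rac2 did not follow and Ncf4 did, with its 3 libraries nearly equal. In the knockout ethanol group it was 31813, 30659 and 34863 CPM in libraries 4, 5 and 6, and Cybb, Cyba, Ncf1 and Ncf4 stood in that order while Rac2 was lowest in library 4. Monocyte and macrophage markers ranged less, from 1394 to 1811 CPM summed over 14 genes.

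**Figure D3:**
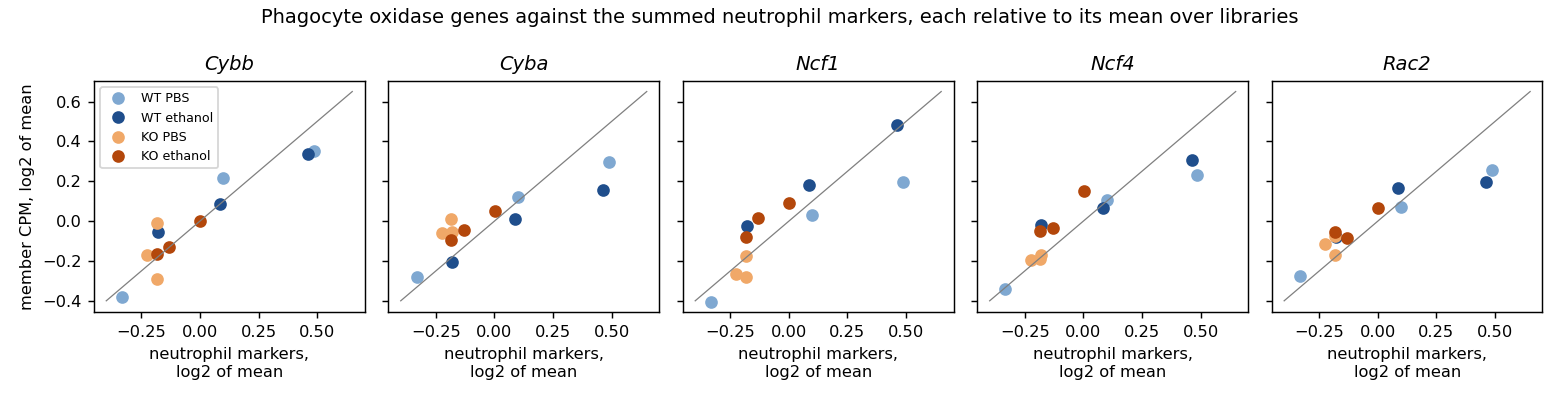
Each panel plots the log2 CPM of 1 gene relative to its mean over 12 libraries (vertical axis) against the log2 summed CPM of 22 neutrophil markers relative to its mean (horizontal axis), with a grey line of equal change. Points rise along the line in every panel, and in libraries 8 and 12 (neutrophil sums of 48831 and 48034 CPM) Cybb, Cyba, Ncf4 and Rac2 lie below it, as Ncf1 does in library 8.

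Likeness over the 12 libraries was taken as the highest Pearson r of log2 CPM among 15306 other named genes. Closest to Cybb were Megf9 (r = 0.978), Myo1f (0.975) and Ly6c2 (0.972, a monocyte surface gene). Closest to Cyba were Camp (0.964, a neutrophil granule antimicrobial peptide), Tkt (0.961, transketolase) and Hmgn2 (0.961). Closest to Ncf4 were Fam199x (0.987), C3 (0.981, the complement component) and Elane (0.979, neutrophil elastase). Each of these 3 subunits thus had a gene of granulocytes or monocytes among its nearest.

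Rac2 was closest to Hcls1 (0.977), Pimreg (0.975) and Alox5 (0.968, the leukotriene-forming lipoxygenase of leukocytes). Ncf1 was closest to Ptgr1 (0.991), Asprv1 (0.990) and Fmo5 (0.982). Nox4 was closest to Apod (0.943, a lipocalin), Afdn (0.940) and Gm32200 (0.939). No gene appeared near more than 1 member.

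Ratios taken within a library do not depend on library scaling, and after ethanol Ncf1 rose relative to Cybb, Cyba and Rac2 but did not pass against Ncf4. Per kilobase, Ncf1 stood to Cybb at 1.11, 1.13 and 1.24 in the wild-type PBS libraries and at 1.35, 1.29 and 1.40 after ethanol. In the knockout the ratio was 1.13, 1.18 and 1.27 after PBS and 1.40, 1.34 and 1.35 after ethanol. In each genotype all ethanol libraries lay above all PBS libraries, a pattern that 0.991% of all genes showed against Cybb. The averaged difference was 0.20 (log2), or 1.15-fold, with exact p = 0.005 (two-sided permutation within genotype, n = 3 per group, the smallest p that 400 arrangements allow). Adjusted over the 42 ratio tests made, which were chosen after seeing the data, it was p = 0.035 by this exact permutation test. Over 13 alternatives that left out 1 library or libraries 8, 9 and 12, the difference ran from 0.18 to 0.23. With 1 library left out the exact permutation p ran from 0.005 to 0.01. There too 0.005 is the smallest p that the arrangements allow, so these p-values are limited by the number of arrangements.

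The ratios to Cyba and Rac2 also differed. Ncf1 stood to Cyba at 0.723, 0.719 and 0.706 after PBS and 0.867, 0.872 and 0.965 after ethanol in the wild type, and at 0.709, 0.669 and 0.628 against 0.802, 0.778 and 0.792 in the knockout. The averaged difference was 0.29, or 1.22-fold (exact permutation p = 0.005, adjusted p = 0.035), and 2.63% of genes rose clear of Cyba in both genotypes. Rac2 stood to Ncf1 at 0.886, 0.897 and 0.942 after PBS and 0.852, 0.827 and 0.707 after ethanol in the wild type. In the knockout this ratio was 0.923, 0.953 and 0.931 after PBS and 0.804, 0.875 and 0.847 after ethanol. Rac2 fell relative to Ncf1 by 0.17 on the log2 scale (exact permutation p = 0.005, adjusted p = 0.035), and 1.29% of genes rose clear of Rac2 in both genotypes. Ncf4 to Ncf1 differed by -0.097, lower without overlap in the wild type and overlapping in the knockout, and did not pass (exact permutation p = 0.03, adjusted p = 0.115).

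Against the neutrophil markers, Ncf1 also rose. Per 1000 CPM of summed markers it read 17.1, 14.7 and 17.1 CPM after PBS and 19.2, 20.001 and 18.2 CPM after ethanol in the wild type. In the knockout it read 18.1, 17.5 and 16.8 CPM after PBS and 19.9, 19.3 and 19.1 CPM after ethanol. The averaged difference was 0.20, or 1.15-fold (exact permutation p = 0.005, adjusted p = 0.035), and 0.754% of genes stood clear in this way. Cybb did not differ detectably from the same markers (-0.0060, exact permutation p = 0.93). Cyba (-0.092), Ncf4 (0.098) and Rac2 (0.021) did not pass against them either (exact permutation p = 0.145, 0.16 and 0.69). Among the 9 mature neutrophil markers, Mmp8 (0.42, adjusted p = 0.0315) and Cxcr2 (0.35, adjusted p = 0.0330) rose after ethanol in the averaged edgeR comparison, and the other 7 were not called. Of the 9, 5 read higher and 4 lower, with a median of 0.019, and 5.02% of all genes were called higher in this comparison. Mmp8 lost its call in 9 of 21 alternatives (without any 1 of libraries 1, 2, 3, 5, 6, 7, 9 or 12, or without the count filter; adjusted p up to 0.0765). Cxcr2 lost it in 10 (the same omissions and library 10; adjusted p up to 0.0850). With the neutrophil markers as a covariate in edgeR, Ncf1 passed in the wild type (0.23, adjusted p = 0.0377, 2.67% of genes called) and on average (0.18, adjusted p = 0.00978, 12.2% called) and not in the knockout (0.13, adjusted p = 0.208, 2.47% called). Over 22 and 21 alternatives the adjusted p ran from 0.0377 to 0.785 in the wild type and from 0.00978 to 0.273 on average.

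**Figure D4:**
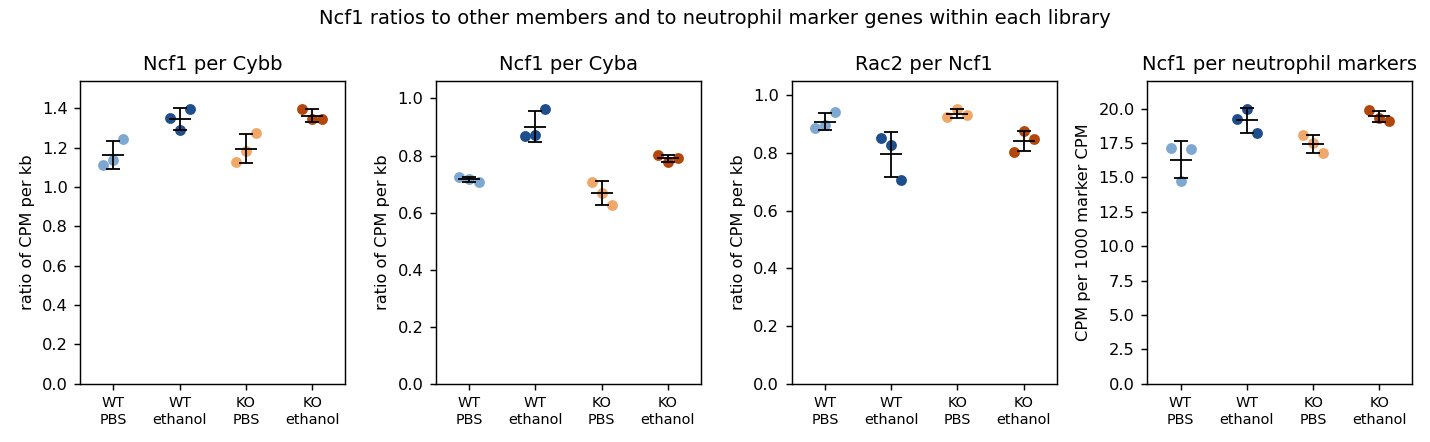
Ratio of Ncf1 to Cybb and to Cyba, ratio of Rac2 to Ncf1 (each per kilobase) and Ncf1 CPM per 1000 CPM of neutrophil markers, by group, with points for libraries and bars for the mean and SD of 3. In each panel the ethanol libraries of a genotype do not overlap its PBS libraries.

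Of the other ratios, those of Nox4 differed most after ethanol, by 1.04 (Nox4 to Ncf1) to 1.33 (Nox4 to Cyba). Their ranges overlapped in both genotypes, and none passed (exact permutation p = 0.055 to 0.1, adjusted p = 0.158 to 0.21). Ncf4 rose relative to Cyba after ethanol by 0.19, or 1.14-fold (exact permutation p = 0.005, adjusted p = 0.035). Its ranges overlapped in neither genotype, as for 2.63% of all genes that rose clear of Cyba. Rac2 rose relative to Cyba by 0.11, or 1.08-fold (exact permutation p = 0.01, adjusted p = 0.0467), with ranges that overlapped in the knockout. Ncf4 to Cybb, at 0.10, did not pass (exact permutation p = 0.06, adjusted p = 0.158).

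The knockout differed from the wild type in some of its Cyba ratios. Cyba read 7.23, 7.41 and 7.58 CPM per 1000 CPM of neutrophil markers in the knockout after PBS, against 6.71, 5.81 and 6.86 CPM in the wild type. After ethanol it read 7.02, 7.05 and 6.84 CPM in the knockout and 6.28, 6.50 and 5.35 CPM in the wild type. The knockout values lay above the wild-type ones in both gavages, as for 1.98% of all genes. The averaged difference was 0.21, or 1.15-fold (exact permutation within gavage, p = 0.005, adjusted p = 0.035). Libraries 8 and 12, which had the largest neutrophil sums, gave the lowest wild-type values, and without libraries 8, 9 and 12 the difference was 0.13. Relative to Cyba, Ncf1 was lower in the knockout by -0.14 and Ncf4 by -0.091 (exact permutation p = 0.01 and adjusted p = 0.0467 for both). The Ncf1 to Cyba ranges overlapped under PBS and the Ncf4 to Cyba ranges under ethanol. Over the alternatives the exact permutation p of these 2 ratios reached 0.05. Cyba to Cybb (0.17), Rac2 to Cyba (-0.080) and Nox4 to Cyba (-0.25) did not pass for the knockout (exact permutation p = 0.015, 0.04 and 0.67, adjusted p = 0.063, 0.14 and 0.828). Without libraries 8, 9 and 12 every ratio named here as passing kept its direction.

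In each of the 4 groups, the library with the least skeletal muscle RNA also held the least Nox4. In the wild type, the muscle sum was 3186, 33196 and 36813 CPM in libraries 7, 8 and 9, where Nox4 was 0.322, 1.14 and 0.971 CPM. In libraries 10, 11 and 12 the sum was 1304, 18887 and 38104 CPM and Nox4 was 0.507, 2.39 and 3.63 CPM. The order of the remaining libraries did not always follow. Library 9 had more muscle RNA than library 8 and less Nox4, as did library 5 against library 4. The knockout sums were 3112, 12329 and 8641 CPM after PBS with Nox4 at 0.397, 0.867 and 0.454 CPM, and 6975, 8162 and 6302 CPM after ethanol with Nox4 at 2.0, 1.72 and 0.839 CPM. The knockout ethanol libraries 4 and 5 thus held more Nox4 than any PBS library at muscle sums below those of libraries 2, 3, 8 and 9.

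With the mean log2 level of the 16 muscle markers as a covariate in edgeR, Nox4 passed in all 3 ethanol comparisons. The difference was 1.73 ± 0.30 in the wild type (adjusted p = 0.0183, 2.67% of genes called), 1.43 ± 0.29 in the knockout (adjusted p = 0.0215, 4.86%) and 1.58 ± 0.21 on average (adjusted p = 0.000923, 15.2%). The averaged call was also made without the wild-type ethanol library 10, which had the least muscle RNA (1.65, adjusted p = 0.0188, 8.68% of genes called). Over 20 alternatives the averaged value ran from 1.12 to 1.78 and its adjusted p from 0.000923 to 0.204. Over 21 alternatives each, the adjusted p ran from 0.0183 to 0.615 in the wild type and from 0.0215 to 0.642 in the knockout. The same covariate turned the knockout differences of Nox4 to 0.59 under PBS and 0.29 under ethanol, neither of them called. Osteoclast markers, summed over 13 genes, were 2609 to 2971 CPM and 2763 to 4152 CPM in the wild type and 3182 to 3369 CPM and 2966 to 3561 CPM in the knockout (PBS, then ethanol). In the averaged ethanol comparison 12 of the 13 read higher and 3 were called higher (median 0.20, edgeR), where 5.02% of all genes were called higher. All 13 osteoblast markers read lower after ethanol in both genotypes, and on average 9 were called lower (median -0.76), against 5.81% of all genes. Summed, they were 25383 to 32323 CPM and 13173 to 25656 CPM in the wild type and 36202 to 43727 CPM and 12352 to 26272 CPM in the knockout. The part of either cell type in the Nox4 values was not tested.

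**Figure D5:**
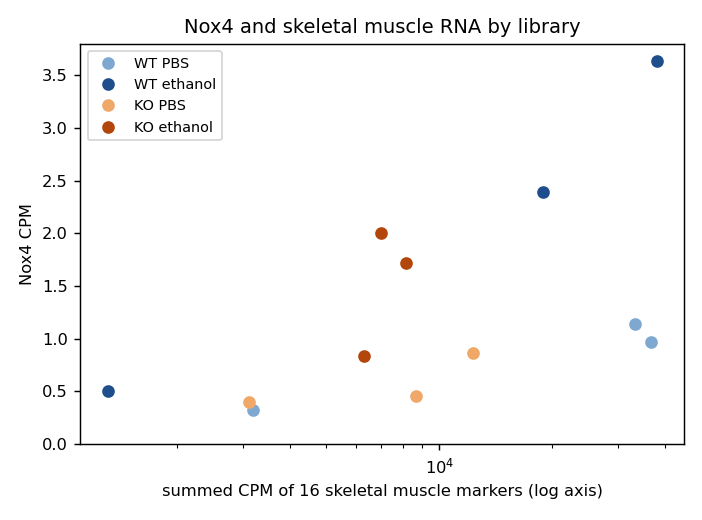
Nox4 CPM (vertical axis, linear) against the summed CPM of 16 skeletal muscle markers (horizontal axis, logarithmic) in the 12 libraries, coloured by group. The ethanol libraries 4, 5, 11 and 12 lie at 1.72 to 3.63 CPM, above all PBS libraries (1.14 CPM or less), and the ethanol libraries 6 and 10 lie at 0.839 and 0.507 CPM.

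The rest of the pathway was read from lists of known genes. Of 18 other subunits and partners of the family, 14 were tested, and in the averaged ethanol comparison 1 rose and 1 fell (5.02% and 5.81% of all genes did so). Sh3pxd2b, a scaffold of podosomes related to Ncf1, fell from 89.9 ± 8.98 to 66.5 ± 5.69 CPM in the wild type and from 93.5 ± 4.71 to 64.3 ± 9.36 CPM in the knockout (SD, n = 3). Its averaged difference was -0.49 ± 0.077 (edgeR adjusted p = 0.0034), and it was called in the knockout alone as well (-0.54, adjusted p = 0.0302), a call lost without any 1 of libraries 1, 2, 3, 4 or 6 (adjusted p up to 0.135). Hvcn1, the proton channel that balances the charge moved by the phagocyte oxidase, rose by 0.18 ± 0.053 (adjusted p = 0.0478) and lost this call in 14 of 21 alternatives, including the omission of any 1 library except library 7 (adjusted p up to 0.151). The list's median was -0.081. Nox3, Noxa1, Duox2 and Duoxa2 did not reach the count filter.

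The 19 activators tested (1 of 20 was not matched to a single identifier) include the receptors and kinases that switch the enzyme on. On average 2 rose and 0 fell (5.02% and 5.81% of all genes did so), with a list median of 0.081. They were the immunoglobulin receptor Fcgr3 (0.32 ± 0.088, adjusted p = 0.0413, edgeR) and the formyl peptide receptor Fpr1 (0.30 ± 0.080, adjusted p = 0.0365). Fcgr3 lost its call in 11 of 21 alternatives (without any 1 library except 8 and 11, or without the count filter; adjusted p up to 0.0984). Fpr1 lost it in 9 (without any 1 library except 4, 8 and 11; adjusted p up to 0.0860). Of 12 transcription factors of phagocyte oxidase genes tested, 8 read higher and 4 lower on average, with a median of 0.088. Among them Cebpa, a regulator of granulocyte formation, rose by 0.29 ± 0.071 (adjusted p = 0.0246, edgeR), where 5.02% of all genes rose. Cebpa lost its call in 5 of 21 alternatives (without library 1, 2, 3 or 9, or without 8, 9 and 12; adjusted p up to 0.177).

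Of 13 genes listed for NADPH supply and linked metabolism, 0 rose and 3 fell on average (5.02% and 5.81% of all genes did so), with a median of -0.096. A place on this list does not mean that the enzyme itself makes NADPH. Nnt, the mitochondrial transhydrogenase, fell from 35.8 ± 0.955 to 29.6 ± 1.24 CPM in the wild type and from 31.3 ± 1.07 to 27.3 ± 0.674 CPM in the knockout (-0.24 ± 0.043, adjusted p = 0.0060). Me2, mitochondrial malic enzyme, fell by 0.18 and Rpia, of the pentose phosphate pathway, fell by 0.18 (adjusted p = 0.0277 and 0.0207, edgeR), calls lost in 8 and 4 of 21 alternatives. Me2 lost it without any 1 of libraries 1 to 6, 8 or 11 (adjusted p up to 0.0705), and Rpia without library 1, 3 or 5 or without 8, 9 and 12 (adjusted p up to 0.0622).

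Of 19 genes that remove superoxide and peroxide, 1 rose and 3 fell on average (5.02% and 5.81% of all genes did so), with a median of -0.038. Prdx1, a cytosolic peroxiredoxin, fell from 188 ± 8.73 to 164 ± 6.51 CPM in the wild type and from 189 ± 4.49 to 160 ± 0.653 CPM in the knockout (-0.22 ± 0.039, adjusted p = 0.0052, edgeR). Gpx8 and Gpx7, peroxidases of the endoplasmic reticulum, fell by 0.44 and 0.59, and Gpx3, the secreted glutathione peroxidase, rose by 0.38 ± 0.096 (adjusted p = 0.0334, 0.0351 and 0.0283). These 3 calls were lost in 8, 11 and 10 of 21 alternatives (adjusted p up to 0.110, 0.259 and 0.0947), including the set without libraries 8, 9 and 12. Among single libraries, Gpx8 lost it without 1, 2, 3, 4, 6, 7 or 9, Gpx7 without any except 5 and 7, and Gpx3 without any except 6, 9 and 10. In the wild type alone (1.26% of all genes called) no gene of these 5 lists was called. In the knockout alone (1.87% of all genes called) Sh3pxd2b and Prdx1 (-0.25, edgeR adjusted p = 0.0430) were. Prdx1 lost the knockout call without any 1 of libraries 1 to 6 or 11 or without the count filter (adjusted p up to 0.182). Between the genotypes Cat was the only gene of the 5 lists called.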

How the data were processed

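Counts per Ensembl gene were deposited for 12 libraries. Per the submitters' processing notes, the genome build was GRCm38 and the tools were STAR 2.5.2b, Trimmomatic 0.36, Subread 1.5.2 and featureCounts. The sources used here give no settings, strand use or annotation release. A deposited normalized signal for 17408 genes is the count divided by 1 factor per library, and served 1 alternative. Symbols came from the deposited table (17391 genes), otherwise from GENCODE M21, which also gave coordinates. Genes passed filterByExpr (minimum count 10, minimum total count 15), with TMM factors of 0.909 to 1.05. A robust quasi-likelihood model in edgeR 4.0.16 (R 4.3.3) held 1 coefficient per group over all 12 libraries (8 residual degrees of freedom), with Benjamini-Hochberg adjustment over 18161 genes and a threshold of 0.05. The fit was tested on simulated data. Alternatives used DESeq2 1.42.0, limma 3.58.1, other filters, covariates and omitted libraries. Ratios were tested by exact permutation within genotype or gavage. The text names all 6 members, the called genes of each list (at most 4 per comparison) and, per member, the 3 most correlated genes with a mean of at least 1 CPM. One list result is not reported here. Members and lists were chosen with earlier results of these data known. The mature neutrophil markers were named after their values were seen. Counting error alone limits Nox4, at 8 to 69 reads per library.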

Additional observations from a re-analysis of the deposited data

How the results depend on the processing

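No paired analysis was possible because the groups share no replicate numbers. Of 774 log2 values of the 6 genes under alternatives, 698 kept direction and side of the threshold, 67 changed sign and 9 newly passed. The cause was not tested in any case. The number of members called, 0 of 6, became 1 with the muscle covariate (Nox4, all 3 ethanol comparisons), with DESeq2 and without wild-type ethanol library 10 (Nox4, average; 0 to 1 over libraries left out), with the neutrophil covariate (Ncf1, wild type and average), and in the knockout for the 2 groups alone and without libraries 8, 9 and 12 (Ncf1). Nox4 had no value under the filter of 5 CPM. Without libraries 8, 9 and 12 the wild-type PBS arm is library 7 alone, assumed to vary like the other groups.

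The values that changed sign follow, none of them called. With the neutrophil covariate, ethanol in the knockout gave -0.071 (Cybb) and -0.095 (Cyba), and the averaged ethanol value of Cybb was -0.028. The knockout under PBS gave 0.030 (Cybb), 0.12 (Cyba), 0.052 (Ncf1), 0.018 (Ncf4) and 0.036 (Rac2), the knockout under ethanol 0.12 (Cyba) and 0.040 (Ncf4), and the interaction -0.085 (Cybb), -0.0016 (Cyba) and -0.040 (Rac2). With the muscle covariate, Nox4 was 0.59 and 0.29 for the knockout under PBS and ethanol. Interactions were -0.0033 (Cybb) and 0.16 (Nox4) with limma-voom, and -0.012 and 0.16 with limma on the log2 deposited signal. Without libraries 8, 9 and 12, ethanol in the wild type gave -0.18 (Cybb), -0.068 (Ncf4) and -0.0071 (Rac2), and averaged Cybb was -0.062. Nox4 was then 0.84 and 0.055 for the knockout under PBS and ethanol, Cyba 0.053 under ethanol, and the Ncf1 interaction 0.18. The knockout differences of ratios were then 0.80 (Nox4 to Cybb), 0.60 (Nox4 to Cyba), 0.73 (Nox4 to Ncf1), 0.70 (Nox4 to Ncf4), -0.69 (Rac2 to Nox4), 0.73 (Nox4 to neutrophil markers) and -0.068 (Cybb to neutrophil markers).

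Leaving out 1 library at a time gave these ranges. Ethanol in the wild type: Cybb -0.15 to 0.20, Cyba -0.21 to 0.076, Ncf4 -0.038 to 0.24 and Rac2 -0.061 to 0.21, each lowest without library 9 and highest without library 8. Ethanol in the knockout: Cybb -0.0090 to 0.13 and Cyba -0.033 to 0.038. Averaged ethanol: Cybb -0.049 to 0.12 and Cyba -0.10 to 0.038. Knockout under PBS: Cyba -0.24 to 0.050. Knockout under ethanol: Cyba -0.11 to 0.068, Ncf4 -0.17 to 0.0034 and Nox4 -0.98 to 0.070. Interaction: Cybb -0.15 to 0.20, Cyba -0.074 to 0.21, Ncf1 -0.17 to 0.13, Ncf4 -0.035 to 0.24, Nox4 -0.52 to 0.52 and Rac2 -0.11 to 0.15. The ethanol ratios ran from -0.00059 to 0.065 (Rac2 to Cybb), -0.043 to 0.028 (Cybb to neutrophil markers) and -0.020 to 0.080 (Rac2 to neutrophil markers). The knockout ratios ran from -0.49 to 0.16 (Nox4 to Cybb), -0.52 to 0.11 (Nox4 to Ncf1), -0.57 to 0.080 (Nox4 to Ncf4), -0.46 to 0.17 (Nox4 to neutrophil markers), -0.00020 to 0.069 (Cybb to neutrophil markers), -0.010 to 0.044 (Rac2 to Ncf4) and -0.090 to 0.61 (Rac2 to Nox4).

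The number of genes called moved by over 1.5 times in these cases. Ethanol in the wild type called 229 genes, against 715 with DESeq2, 152 with limma-voom, 4 in the 2 groups alone, 484 with either covariate, 37 without libraries 8, 9 and 12 and 35 to 320 without 1 library. Ethanol in the knockout called 339, against 951 with DESeq2, 1677 in the 2 groups alone, 882 with the muscle covariate, 1342 without libraries 8, 9 and 12 and 52 to 568 without 1 library. The averaged effect called 1967, against 1040 to 2152 without 1 library. The knockout under ethanol called 2 against 13 with DESeq2, and the interaction 0 against 1.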
